A study of Mus musculus with 31 samples.

Results

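The 8 genes described here, Fkbp5, Sgk1, Tsc22d3, Cdkn1a, Sult1a1, Plin4, Zbtb16 and Hif3a, are known as genes that answer to glucocorticoids. They were chosen by symbol, out of 18193 genes with a probe set that names 1 gene, and every probe set annotated to them was taken, which gave 21. Glucocorticoids such as corticosterone enter the cell and bind the glucocorticoid receptor Nr3c1, which is held in the cytoplasm by Hsp90 and its co-chaperones. The bound receptor moves to the nucleus and attaches to DNA at glucocorticoid response elements, inverted repeats of a short motif, where it can raise transcription of genes such as Fkbp5, Sgk1 and Tsc22d3. In T cells the hormone dampens activation. In the brain the same genes are used as readouts of circulating hormone and of stress, in neurons and in glia.

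Total RNA was hybridised to 31 mouse expression arrays, 1 array per sample, which the labels place in 10 groups of CD4+ T cells. The source mice carried a bicistronic Foxp3/EGFP allele, in which green fluorescent protein reports the transcription factor Foxp3 that defines regulatory T cells (Treg), or the mutant Foxp3deltaEGFP allele. The native groups were conventional T cells (CD4+ Foxp3-EGFP-, 3 arrays), natural Treg (CD4+ Foxp3+EGFP+, 4) and natural Foxp3-delta cells (CD4+ Foxp3deltaEGFP+ from heterozygous females, 2), all sorted from spleen and lymph nodes. Activated T cells (4) were conventional cells stimulated with anti-CD3 and anti-CD28 antibodies without TGF-beta, and activated natural Treg (3) were natural Treg given both antibodies with TGF-beta. Induced Treg (5) were Foxp3-negative cells that had turned on the reporter after 3 days with both antibodies and TGF-beta, and failed induced Treg (3) came from the same cultures without turning it on. Induced Foxp3-delta cells (3) were made in the same way from Foxp3deltaEGFP mutant mice. The IL-2 induced Treg and IL-2 induced Foxp3-delta groups (2 arrays each) had, after induction, 1 week of culture with interleukin 2 at 100 units/ml. No label names a glucocorticoid treatment. The labels do not give the age of the mice or say that arrays of a group came from separate animals, so p-values here measure only how these samples spread, and that spread may be technical.

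The RNA on the arrays went against the labels. The summed normalised intensity of 11 T cell markers lay between 263 and 334 on every array, and only Cd3e and Zap70 of them were high enough to test. Foxp3 itself read 9.59 to 16.9, where the 27 control probe sets for bacterial genes that no spike-in targets had a median of 8.55 and reached 13.8 at their 95th percentile. In contrast, 9 neuron markers summed to between 49750 and 59700 and 8 oligodendrocyte markers to between 66021 and 73043, and the median marker of neurons, oligodendrocytes and astrocytes ranked at the 99.2, 99.2 and 99.1 percentile of the array. The groups are therefore called arrays labelled with a name, and no difference between them is tied to the treatment the label gives. In RNA from a mixture of cells, fewer cells of a type and less RNA per cell cannot be told apart.

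The arrays also fell into 3 technical sets by their deposited median, their 99th percentile and the ratio between 2 hybridisation controls, cre over bioB. Set 1 held 15 arrays, set 2 held 10 and set 3 held 6. The deposited median ran from 37.0 to 47.7 in set 1, from 22.2 to 37.4 in set 2 and from 40.8 to 55.4 in set 3, and the log2 ratio of cre to bioB ran from 5.02 to 5.28, from 5.71 to 6.44 and from 5.31 to 5.52. The actin control, an estimate of RNA integrity, had a 3′ to 5′ ratio of 1.63 to 1.84 in set 1, 1.76 to 2.19 in set 2 and 1.62 to 1.82 in set 3. All arrays labelled conventional T, natural Treg or IL-2 cultured belonged to set 1, and all 3 labelled activated natural Treg and 3 of 4 labelled activated T belonged to set 2. Values below are intensities after quantile normalisation, differences are on the log2(intensity + 16) scale, and a probe set was called at an adjusted p under 0.05 (limma with Benjamini-Hochberg adjustment over all 24669 probe sets tested).

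Promoter sequence was looked up for the 8 genes in the RefSeq-derived table of mouse gene starts (build GRCm38.p6), which held 15 entries for 7 of them and none for Zbtb16. In the 250 bases before each start, the full glucocorticoid response element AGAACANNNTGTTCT, which is its own reverse complement, was found in 3 of 32851 entries of the table (0.00913%), and 1 of these was a start of Sgk1. The p53 pattern CATGNNNNNNCATG, also its own reverse complement, was found in 161 entries (0.49%), among them 1 of 2 for Cdkn1a. The single arm AGAACA, searched on both strands and contained in the full element, was present in 16.1% of all entries and in 5 of the 15, which belonged to Sgk1, Tsc22d3 and Sult1a1. Entries of 1 gene are alternative starts, and of the 15 Sgk1 had 6, Tsc22d3 3 and Sult1a1 1, so the 15 do not weigh the genes equally. A match is a string of letters in this window and does not show binding. Sgk1 and Cdkn1a were taken because they were the genes with called differences between pairs of label groups. Of their 6 and 2 entries, the windows shown are those that held the full element or the p53 pattern. Both are on the plus strand, written 5′ to 3′, with the full response element of Sgk1 and the p53 pattern of Cdkn1a in capitals.
Sgk1, chr10:21993640-21993889: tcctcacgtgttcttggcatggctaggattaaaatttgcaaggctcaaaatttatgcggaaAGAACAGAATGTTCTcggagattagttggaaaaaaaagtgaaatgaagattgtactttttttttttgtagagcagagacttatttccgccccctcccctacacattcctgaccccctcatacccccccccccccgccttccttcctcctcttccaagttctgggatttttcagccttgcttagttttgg
Cdkn1a, chr17:29090729-29090978: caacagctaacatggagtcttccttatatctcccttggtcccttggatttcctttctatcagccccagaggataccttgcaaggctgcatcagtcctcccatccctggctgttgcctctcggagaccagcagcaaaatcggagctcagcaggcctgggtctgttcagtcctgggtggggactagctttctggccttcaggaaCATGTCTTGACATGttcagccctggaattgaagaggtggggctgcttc
The Sgk1 element began 189 bases before the start of that entry, and the Cdkn1a pattern 48 bases before the start of its own.

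Of the 21 probe sets, 12 lay above the median of the normalised table (39.8) on at least 2 arrays and were tested, and these covered 7 of the 8 genes. Plin4 had no tested probe set. The other untested ones were secondary probe sets of Fkbp5 (1), Tsc22d3 (1), Zbtb16 (1) and Hif3a (5). A test for any difference among the 10 label groups called 4 of the 12, against 12.4% of all probe sets tested. The called ones were the single probe set of Sgk1 (adjusted p = 0.0151), both of Cdkn1a (0.00123 for 1421679_a_at and 0.0390 for 1424638_at) and 1 of 2 tested for Zbtb16 (0.0216). Neither of the 2 tested probe sets of Fkbp5 was called, none of the 3 of Tsc22d3, and neither Sult1a1 nor Hif3a. When the array set was added to the fit as a block, only Cdkn1a 1421679_a_at stayed below the threshold (adjusted p = 0.0153), with 1.03% of all probe sets called. Within set 1 alone only Zbtb16 1439163_at was called (adjusted p = 0.0314, 1.01% of all), and within sets 2 and 3 none was, where 0 probe sets of all those tested were called. The call of Cdkn1a 1424638_at among labels was close to the threshold. It was lost, with adjusted p from 0.0503 to 0.0941, without any 1 of induced Treg arrays 3 and 4, induced Foxp3-delta 1 and 2, activated T 2, activated natural Treg 2, natural Treg 1 and 3, conventional T 1 and 2 and all 4 arrays of IL-2 culture.

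**Figure D1:**
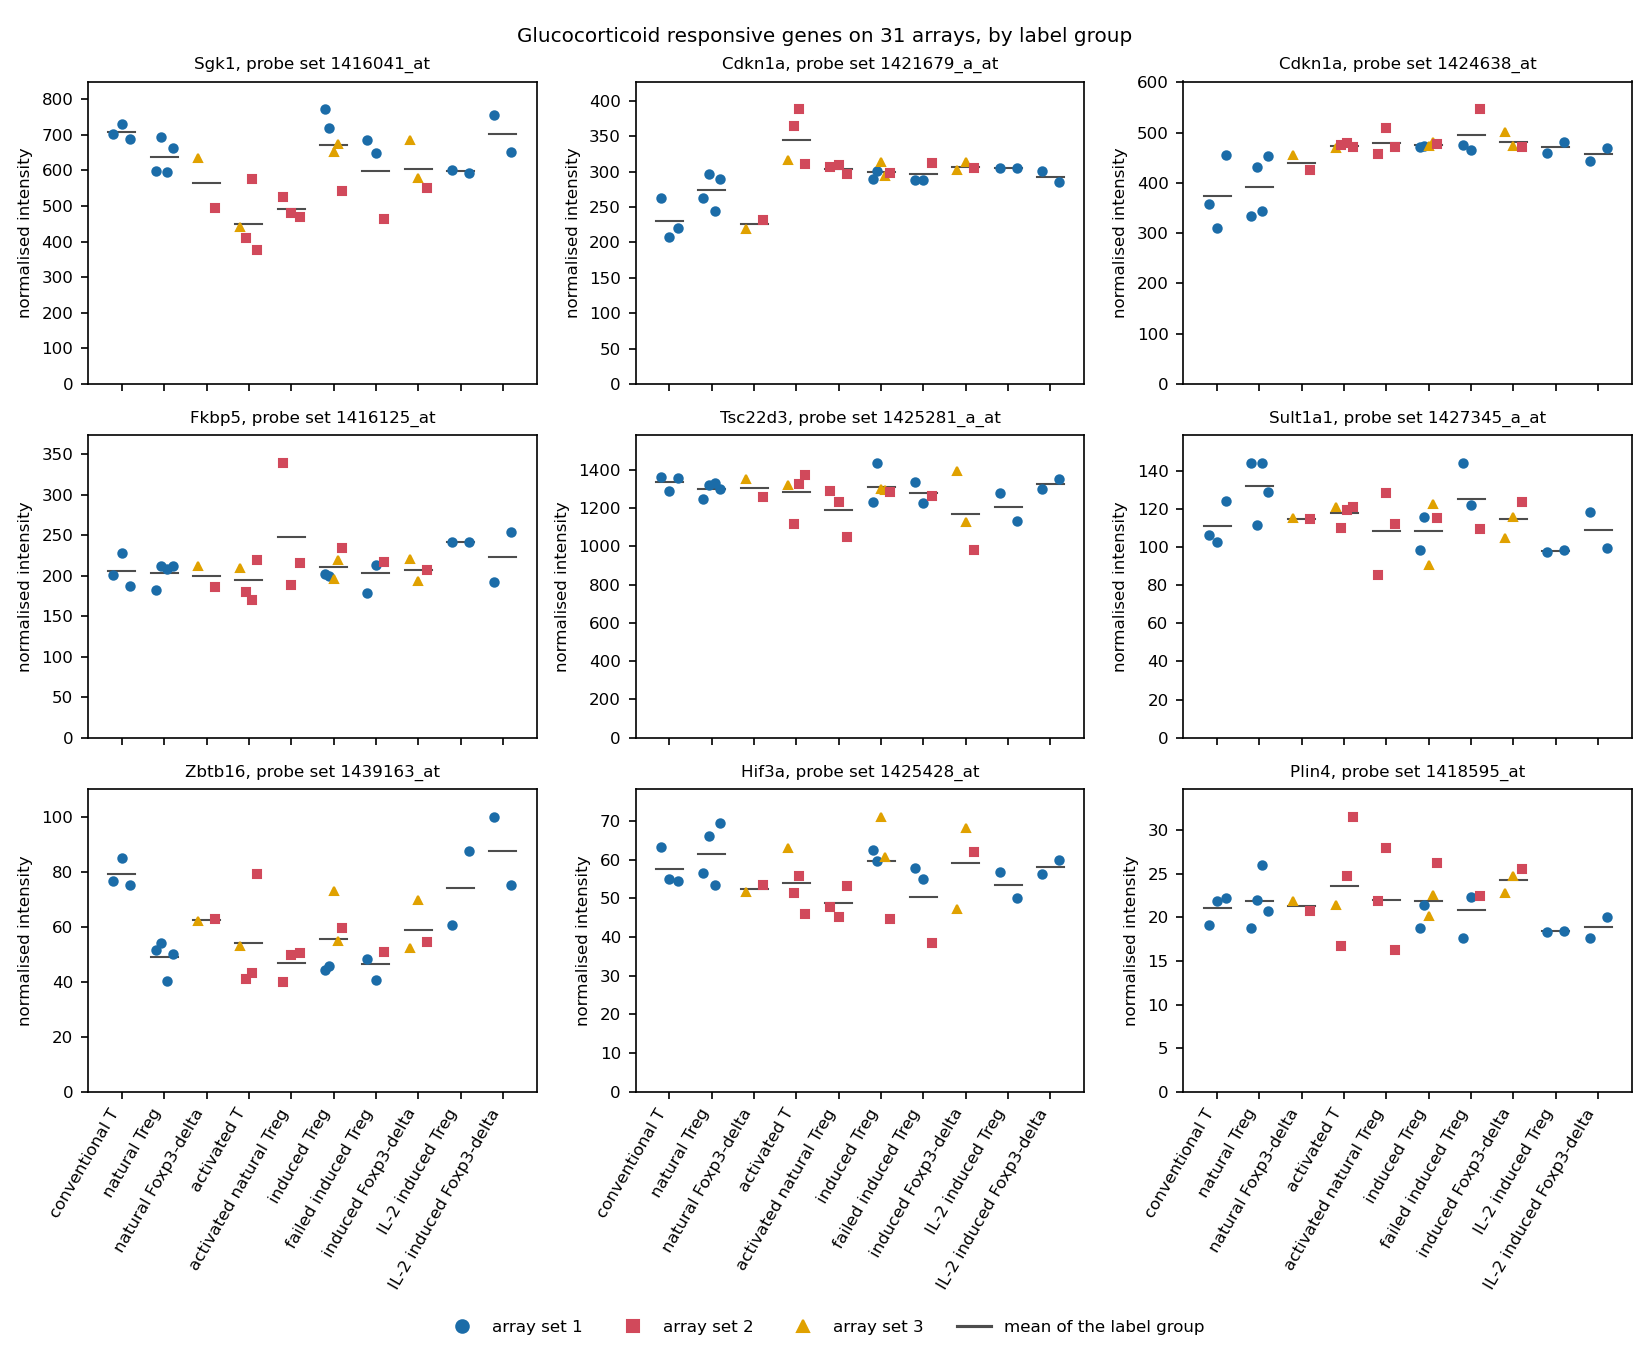
Normalised intensity (y axis, linear, from 0) of 9 probe sets of the 8 genes on each of 31 arrays, grouped by label (x axis). Points are arrays, their colour and shape give the technical array set, and bars give the mean of the label group. Sgk1 of set 2 (375 to 575) lies below all of set 1 (593 to 772), and Cdkn1a is lowest on arrays with native labels.

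Sgk1 encodes a kinase that is transcribed within minutes to hours of hormone and that regulates ion channels and transporters. The arrays labelled conventional T read 701, 731 and 688 and those labelled natural Treg 598, 693, 595 and 662. The arrays labelled activated T read 441, 409.9, 575 and 375, and those labelled activated natural Treg 524, 479 and 468. Every array of both activated labels lay below every array of both of these native labels, while 21.9% of all probe sets did not overlap between activated T and conventional T labels and 29.1% between activated natural Treg and natural Treg labels. The other labels read 772, 719, 652, 675 and 541 (induced Treg), 684, 649 and 464 (failed induced Treg), 686, 579 and 549 (induced Foxp3-delta), 634 and 495 (natural Foxp3-delta), 601 and 593 (IL-2 induced Treg) and 755 and 651 (IL-2 induced Foxp3-delta). The lowest array of the induced Treg label was its 1 array of set 2, as was that of failed induced Treg and of both Foxp3-delta labels without IL-2.

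Sgk1 averaged 450.4 ± 87.7 (SD, n = 4) on the arrays labelled activated T and 707 ± 21.6 (SD, n = 3) on those labelled conventional T. The log2 difference was -0.65 (SE 0.13, 95% interval -0.92 to -0.38, adjusted p = 0.0082 by limma), a decrease in a comparison that called 3 of the 12 member probe sets and 6.17% of all (2.97% higher and 3.2% lower). The median difference was -0.07 over the 12 and 0.00 over all probe sets. Without conventional T array 2 the adjusted p was 0.0502 and the difference -0.63. The difference was -0.95 (adjusted p = 0.0152) on the values as deposited and -0.36 (adjusted p = 0.0374) with array medians scaled, where the median of all probe sets differed by -0.39 and 0.12. No array set holds both labels. Once array set entered as a block, the difference was -0.27 (interval -0.56 to 0.03, adjusted p = 0.564), and 0 of 12 member probe sets and 0.0811% of all were called. Activated natural Treg labels differed from natural Treg labels by -0.37 (SE 0.13, adjusted p = 0.0620), and by 0.07 (adjusted p = 0.902) with the block. Induced Treg labels lay 0.57 (SE 0.12) above activated T labels, with an adjusted p of 0.0591, and 0.37 above them with the block (adjusted p = 0.285).

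Array set and Sgk1 moved together. Sgk1 averaged 673 ± 58.7 (SD, n = 15) in set 1, 488 ± 62.8 (n = 10) in set 2 and 611 ± 91.4 (n = 6) in set 3, and the ranges of sets 1 and 2 did not overlap. The array set accounted for 61.2% of the variance of Sgk1 on the log2 scale, beside a median of 23.4% over all tested probe sets, and the label group for 65.8%, beside 40.5%. Set 2 also had the higher cre to bioB ratios, and its actin ratios reached above those of the other sets. Marker sums of cell types also differed between the labels of the Sgk1 comparison. On activated T and on conventional T arrays, 7 astrocyte markers summed to 39883 to 43947 and 34791 to 38766, 8 oligodendrocyte markers to 67099 to 70166 and 70901 to 73043, and 11 T cell markers to 287 to 334 and 266 to 280, with no overlap in any of the 3. Of all single probe sets 21.9% did not overlap between these labels. Cd3e, 1 of 2 tested T cell markers, rose by 0.81 (adjusted p = 0.00623 by limma). With the array set as a block it differed by 0.21 (adjusted p = 0.667). The sums of neuron, microglia, endothelial and mural markers overlapped, but some single markers were called by limma, as 6.17% of all probe sets were. Of 9 tested neuron markers Rbfox3 fell by 0.70 (adjusted p = 0.0386). Of 7 endothelial ones Pecam1 fell by 0.61 (adjusted p = 0.00622), and of 8 oligodendrocyte ones Olig1 by 0.44 (adjusted p = 0.0486). With the block these were -0.48 (adjusted p = 0.616), -0.32 (0.459) and -0.39 (0.497). Foxp3 and Cd4, defining markers of the labelled cells, were too low to test. The part of the array sets and of these cell types in the Sgk1 result was not tested.

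Cdkn1a encodes p21, an inhibitor of cyclin-dependent kinases that halts the cell cycle and that both p53 and the glucocorticoid receptor can induce. Probe set 1421679_a_at read 262, 208 and 221 on the arrays labelled conventional T, 263, 297, 245 and 290.3 on natural Treg and 219.5 and 232 on natural Foxp3-delta. It read 316, 364, 389 and 311 on activated T, 306, 309.7 and 297 on activated natural Treg and 289, 301, 313, 294 and 298 on induced Treg. On failed induced Treg it read 288, 288 and 312, on induced Foxp3-delta 302, 314 and 305, on IL-2 induced Treg 305 and 306 and on IL-2 induced Foxp3-delta 301 and 285. The 22 arrays with treated or cultured labels thus lay between 285 and 389, and the 9 with native labels between 208 and 297, with 2 natural Treg arrays inside the treated range. In sets 2 and 3, which hold 1 native array each, that array (232 and 219.5) was the lowest of its set.

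The second probe set, 1424638_at, read 359, 309.7 and 456 on conventional T, 334, 432, 343 and 453 on natural Treg and 455 and 425 on natural Foxp3-delta. It lay between 444 and 547 on the 22 treated or cultured arrays, and 3 of the 9 native arrays fell inside that range. The arrays labelled induced Treg read 472, 473, 473, 482 and 478, and those labelled activated T 469, 475, 479 and 471. The spread was thus wide among native arrays and narrow among these 2 labels. Both probe sets moved together over the 31 arrays with Pearson r = 0.61, and with r = 0.69, 0.44 and 0.56 within sets 1, 2 and 3.

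Between the labels activated T and conventional T, both Cdkn1a probe sets rose, by 0.55 (SE 0.08, adjusted p = 0.000616) for 1421679_a_at and by 0.34 (SE 0.10, adjusted p = 0.0383) for 1424638_at. After blocking on array set the differences were 0.48 (adjusted p = 0.0822) and 0.26 (adjusted p = 0.559). On the values as deposited, where the median of all probe sets differed by -0.39, they were 0.12 (adjusted p = 0.614) and -0.023. Scaling the arrays by their medians, which left the median of all probe sets at 0.12, split the calls over all probe sets into 5938 higher and 672 lower, in place of 733 and 789, and the deposited values into 10 and 5564. The same astrocyte, oligodendrocyte and T cell sums, and the same calls of single markers, stand beside this Cdkn1a difference. Their part in it was not tested. The 1424638_at call was lost without any of activated T arrays 2, 3 and 4 or conventional T arrays 1 and 2, with adjusted p from 0.0624 to 0.246.

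Between activated natural Treg and natural Treg labels, a comparison with 15.6% of all probe sets called, 1 of the 12 member probe sets was called. Cdkn1a 1424638_at rose by 0.29 (SE 0.10, adjusted p = 0.0419), and 1421679_a_at differed by 0.15 (adjusted p = 0.198). The call was lost with the set as a block (0.21, adjusted p = 0.579, where 0.199% of all were called), and the sign turned on deposited values (-0.28), where the median of all probe sets differed by -0.54. Marker sums of T cells, neurons, oligodendrocytes, astrocytes, microglia, endothelial and mural cells all overlapped between these labels, T cell markers reading 272 to 315 and 277 to 282. Of single markers, Cd3e rose by 0.59 (adjusted p = 0.0141 by limma) and the endothelial marker Cdh5 by 0.39 (adjusted p = 0.0465). With the block they differed by -0.02 (adjusted p = 0.977) and 0.03 (adjusted p = 0.966). Their part in the Cdkn1a difference was not tested. The 1424638_at call was also lost without any of activated natural Treg arrays 1, 2 and 3 or natural Treg arrays 1 and 3, with adjusted p from 0.0658 to 0.140. The difference between both activation contrasts was -0.40 (SE 0.11) for 1421679_a_at with an adjusted p of 0.287, and 0 of 12 member probe sets and 0 of all were called in that interaction, at 7.55% of all with an unadjusted p under 0.05.

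After these values had been seen, the mean of the 7 treated or cultured labels was set against the mean of the 3 native labels. Cdkn1a rose by 0.32 (SE 0.04, adjusted p = 0.000183) at 1421679_a_at and by 0.25 (SE 0.05, adjusted p = 0.0280) at 1424638_at, where 0.563% of all probe sets were called. With array set blocked, the values were 0.30 (adjusted p = 0.00132) and 0.23 (adjusted p = 0.0814), with 0.405% of all called. Within set 1, with 8 treated and 7 native arrays, they were 0.22 (interval 0.11 to 0.34, adjusted p = 0.0745) and 0.29 (interval 0.11 to 0.47, adjusted p = 0.129), with 0.782% of all called. On the values as deposited, where the median of all probe sets differed by -0.15, both calls were lost, at 0.16 (adjusted p = 0.353) and 0.098 (adjusted p = 0.572). Since the contrast was chosen on the Cdkn1a values, it describes these arrays and is not independent of them. The 1424638_at call did not hold without any single one of natural Treg arrays 1 and 3, natural Foxp3-delta arrays 1 and 2 and conventional T arrays 1 and 2.

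**Figure D2:**
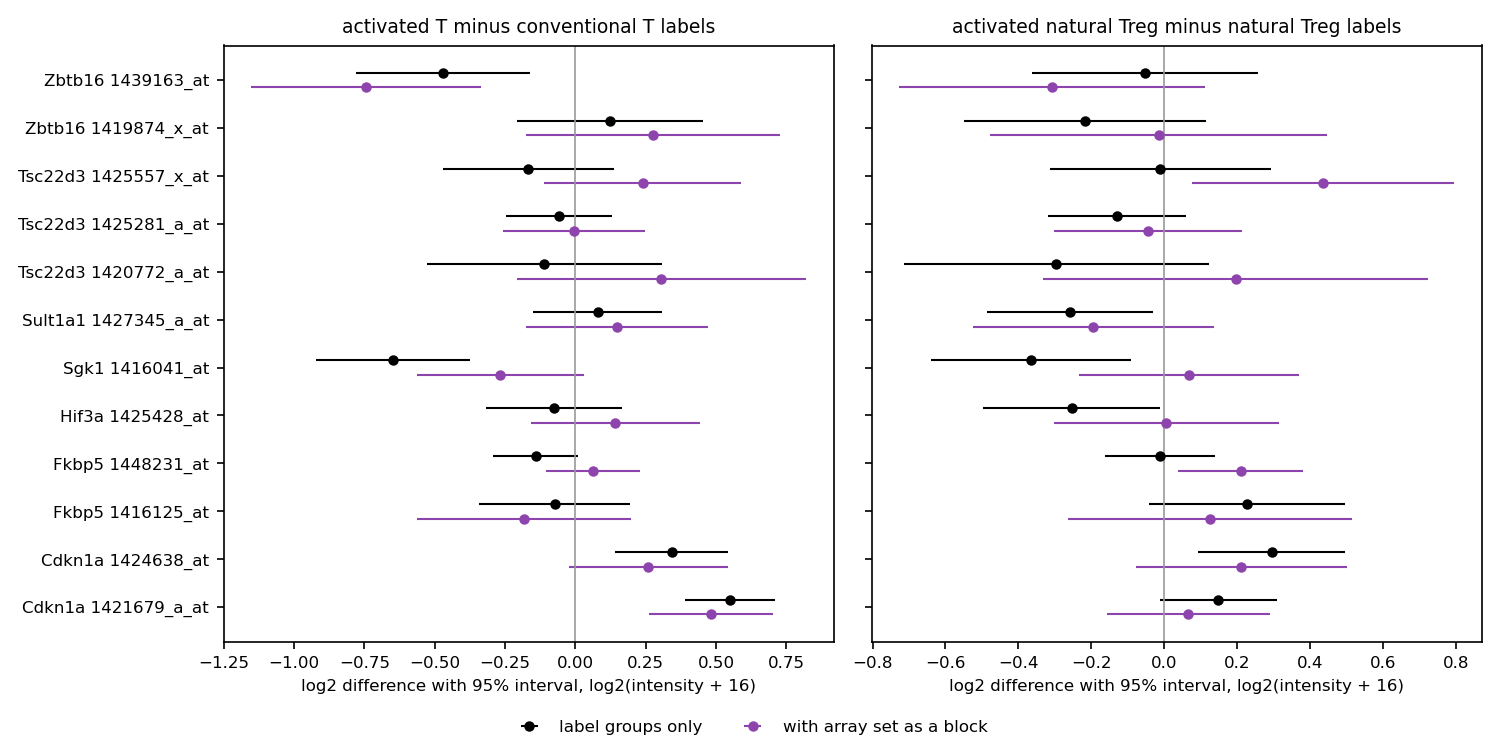
Log2 differences with 95% intervals (x axis) of the 12 tested probe sets (y axis) between activated and native labels, from the fit on label groups (black) and with the array set as a block (purple). Sgk1 in the left panel moves from -0.65 to -0.27 with the block, and Cdkn1a 1421679_a_at from 0.55 to 0.48.

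Zbtb16, also called PLZF, is a transcription factor that glucocorticoids induce in several tissues and that directs innate-like T cells. Probe set 1439163_at read 77.0, 85.2 and 75.5 on the arrays labelled conventional T, 51.7, 54.2, 40.5 and 50.0 on natural Treg and 44.3, 45.9, 73.1, 54.9 and 59.8 on induced Treg. It read 60.8 and 87.7 on IL-2 induced Treg and 100.3 and 75.3 on IL-2 induced Foxp3-delta. The 3 conventional T arrays lay above all 4 natural Treg arrays, while 6.38% of all probe sets did not overlap between these labels. The IL-2 labels held the highest array of all. None of the 10 pairwise contrasts was called for this probe set. The natural Treg minus conventional T difference was -0.55 (SE 0.15, adjusted p = 0.795) where 0.00405% of all probe sets were called. The other tested probe set, 1419874_x_at, went the other way in that contrast, by 0.48 (SE 0.16, adjusted p = 0.9999), with values of 27.1, 33.9 and 36.4 on conventional T and 51.9, 49.1, 59.2 and 45.0 on natural Treg. These probe sets correlated at r = -0.26 over the 31 arrays, so that what 1 probe set of Zbtb16 showed was not seen in the second. The call of 1439163_at among the 10 labels had an adjusted p of 0.0596 without IL-2 induced Foxp3-delta array 1.

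Fkbp5, which encodes a co-chaperone that holds the receptor in a state of low hormone affinity and so closes a feedback loop, is the most used readout of glucocorticoid action. Its main probe set, 1416125_at, read 201, 228 and 187 on conventional T, 182, 213, 208 and 212 on natural Treg and 209, 179.9, 170.4 and 219.5 on activated T labels. On activated natural Treg it read 339, 189 and 215. The 339 of activated natural Treg array 1 was the highest of all 31 arrays, the other 30 lying between 170.4 and 253. Label means ran from 195 ± 23.3 (SD, n = 4) on activated T to 248 ± 80.3 (SD, n = 3) on activated natural Treg. Against the spread within labels, the test among the 10 labels gave an adjusted p of 0.640, and no pairwise contrast was called.

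On that same array, picked for its Fkbp5 value, the other members did not share a direction. Sult1a1 (85.3) and Zbtb16 (40.0) were the lowest of the 31 arrays, and Sgk1 (524), Tsc22d3 (1291), Cdkn1a (457), Hif3a (47.8) and Plin4 (21.9) ranked 24, 17, 21, 26 and 15 from the top. Of 24 other glucocorticoid targets on the arrays, 3 were at their highest there and 0 at their lowest, and of 13 genes of the receptor and its regulators 2 and 2. Of all 12169 tested genes 10.2% were at their highest on that array and 9.75% at their lowest. The second tested probe set of Fkbp5, 1448231_at, read 58.0, 66.1 and 54.4 on the arrays labelled activated natural Treg, so that array 1 was not the highest by it. Both Fkbp5 probe sets correlated at r = -0.09.

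Tsc22d3 encodes GILZ, a leucine zipper protein that carries much of the anti-inflammatory action of glucocorticoids in T cells. Its probe set 1425281_a_at read 981 to 1435 over the 31 arrays, with a median of 1292, and label means lay between 1167 ± 209.7 (SD, n = 3) for induced Foxp3-delta and 1335 ± 39.9 (SD, n = 3) for conventional T. Its probe set 1420772_a_at spread from 777 to 1624, and as widely within single labels, with 1507, 777, 918 and 1475 on the arrays labelled activated T. The third, 1425557_x_at, read 90.7 and 91.7 and 87.0 and 81.6 on the labels of IL-2 culture, and 76.5, 68.3, 51.6, 67.5 and 61.4 on induced Treg. The IL-2 induced Treg minus induced Treg difference was 0.41 (SE 0.16, adjusted p = 0.199) for it, in a comparison where 1.79% of all probe sets were called. None of the 3 probe sets was called in any contrast, and they correlated with each other at r = 0.46, 0.18 and 0.16.

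Sult1a1, a sulfotransferase that conjugates phenols and catecholamines, read 144, 112, 144 and 129 on the arrays labelled natural Treg, 106, 103 and 124 on conventional T and 97.3 and 98.7 on IL-2 induced Treg. Over all arrays it ranged from 85.3 to 144, and the test among labels gave an adjusted p of 0.342. Hif3a, a member of the hypoxia-inducible factor family that lacks the strong activation domain of its relatives, read 38.4 to 71.1 on its 1 tested probe set (adjusted p = 0.610 among labels). Its other 5 probe sets stayed between 8.19 and 26.5. Plin4, which coats lipid droplets in fat cells, read 16.3 to 31.6 and was above the table median on 0 arrays, and 4 adipocyte markers summed to between 36 and 45 on every array.

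The remaining contrasts of label groups called 0 of the 12 probe sets by limma. They were natural Treg minus conventional T (3 of 12 at an unadjusted p under 0.05, 2.53% of all), natural Treg minus natural Foxp3-delta (2 of 12, 15.5%), induced Treg minus activated T (2 of 12, 10.6%), minus failed induced Treg (1 of 12, 4.48%), minus induced Foxp3-delta (0 of 12, 3.04%) and minus natural Treg (3 of 12, 12.4%). IL-2 culture of induced Treg (1 of 12, 16%) and of induced Foxp3-delta cells (2 of 12, 15.9%) gave no call either, nor did the difference between both IL-2 effects (1 of 12, 2.7%). At the adjusted threshold these comparisons called 0.00405%, 0.0892%, 0.0568%, 0%, 0%, 0.255%, 1.79%, 0.332% and 0% of all probe sets, in that order.

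The 8 genes did not move as a group from array to array. Over their 28 pairs, each gene taken by its probe set with the highest mean, the median Pearson r over 31 arrays was -0.01 and 14 pairs were above 0. The median over all 74036196 pairs of 12169 tested genes was 0.00, with a 5th and 95th percentile of -0.46 and 0.46. After the set means had been subtracted the median of the 28 was -0.01, and within sets 1, 2 and 3 it was -0.08, -0.02 and -0.09. Fkbp5, Sgk1 and Tsc22d3, the members most often read as hormone targets, had r = -0.05 (Fkbp5 and Sgk1), 0.05 (Fkbp5 and Tsc22d3) and 0.34 (Sgk1 and Tsc22d3, rho = 0.39, permutation p = 0.0590 for r and 0.0329 for rho, adjusted over 28 pairs 0.536 and 0.307). The last of these fell to 0.08 once set means were subtracted.

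The 1 pair past the threshold was an inverse one. Fkbp5 and Sult1a1 had r = -0.60 (permutation p = 0.00031, adjusted p = 0.00868 over the 28 pairs) and rho = -0.49 (permutation p = 0.00526, adjusted 0.0736). Within the sets r was -0.72, -0.79 and 0.40, the last over the 6 arrays of set 3. Without activated natural Treg array 1 and activated T array 3, the arrays farthest from the median of Fkbp5, r was -0.48 (permutation p = 0.00905). When each pair left out the 2 arrays farthest from the median of its own first gene, in the order listed at the start, 0 of 28 pairs passed. Without activated natural Treg array 1 alone, 0 pairs passed. The next pair, Sgk1 and Hif3a, had r = 0.49 (adjusted permutation p = 0.0732) and rho = 0.49, and r = 0.14 with set means subtracted. On the values as deposited all 28 pairs passed with a median r of 0.69, in intensities whose array medians differed from 22.2 to 55.4.

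**Figure D3:**
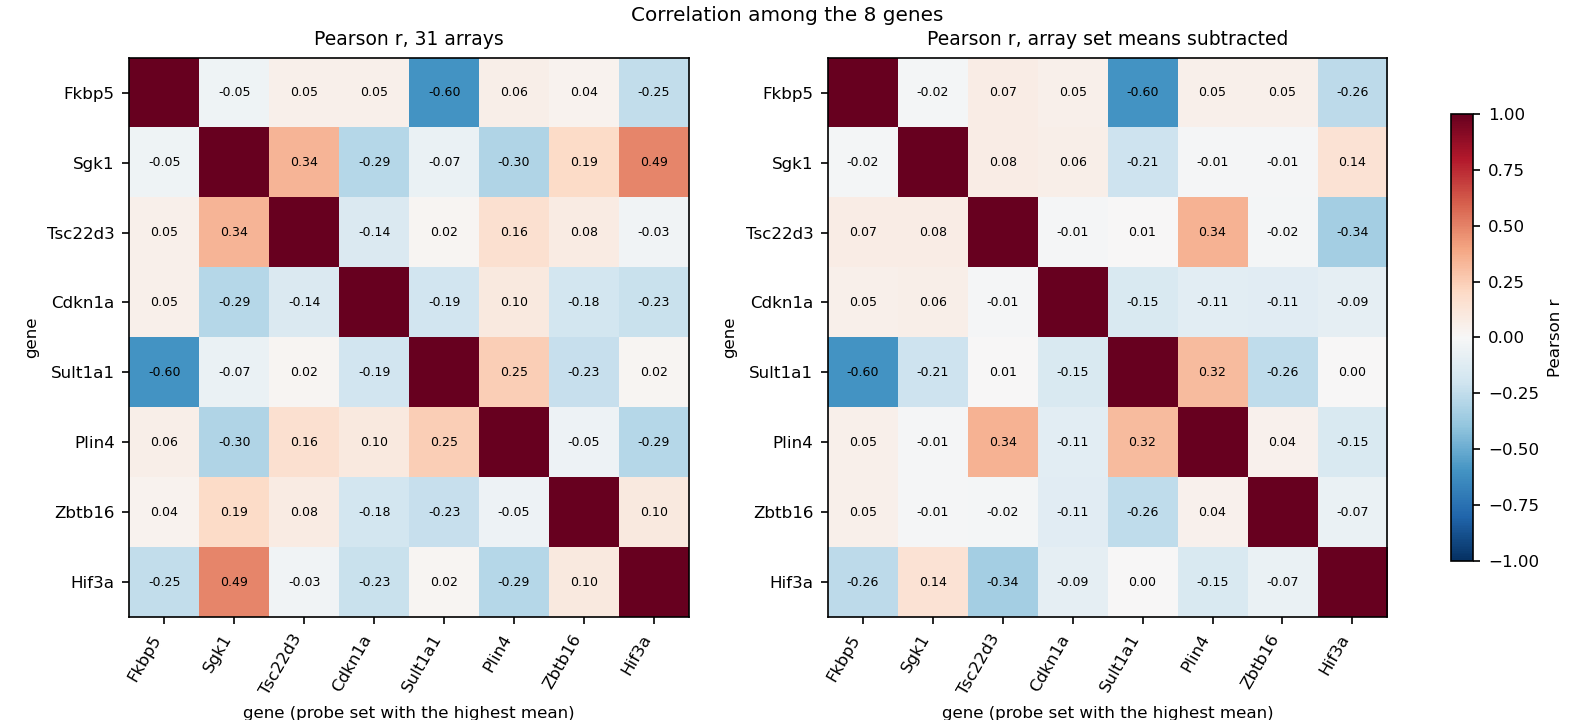
Pearson r of the 28 gene pairs over 31 arrays on the log2(intensity + 16) scale, as normalised (left) and after the mean of each array set was subtracted (right). The inverse pair of Fkbp5 and Sult1a1 (-0.60) stands in both panels, and Sgk1 with Hif3a goes from 0.49 to 0.14.

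**Figure D4:**
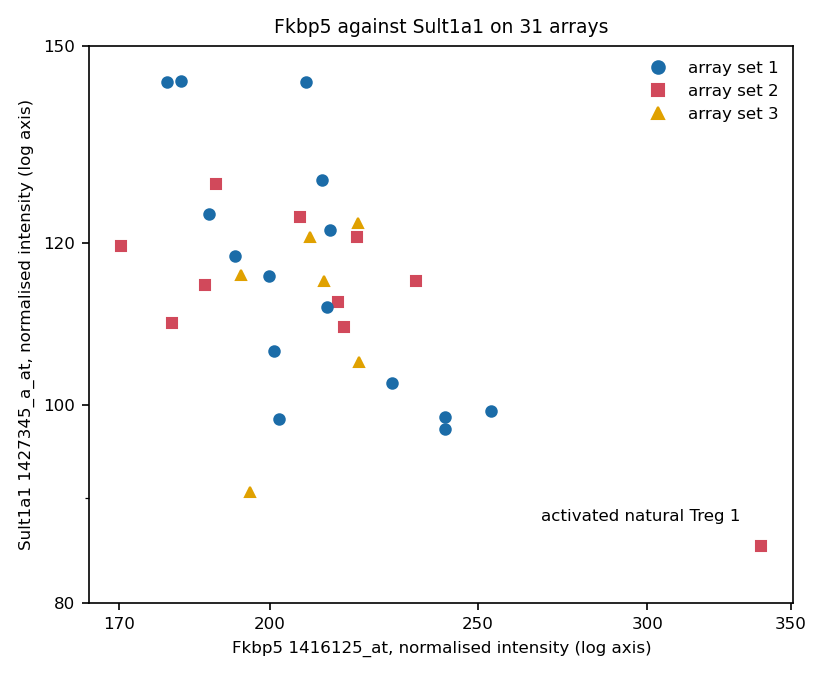
Fkbp5 (x axis) against Sult1a1 (y axis), normalised intensity on log axes, 1 point per array, with colour and shape for the array set. Activated natural Treg array 1 lies apart at 339 and 85.3, and the other 30 arrays span 170.4 to 253 for Fkbp5.

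No tested member had another member among the 3 genes most like it over the 31 arrays. For Sgk1 they were Mlxip, Cbfb and Zbtb11os1 (r = 0.83, 0.81 and 0.81), which fell to 0.49, 0.46 and 0.46 with set means subtracted. For Fkbp5 they were Hells, Ppan and Mrpl32 (0.73, 0.73 and 0.72), for Tsc22d3 Ppp4c, Wdyhv1 and Dsel (0.69, 0.67 and 0.64), and for Cdkn1a Khsrp, Ndufb1 and Atxn7l3 (0.75, 0.73 and 0.70). For Sult1a1 they were Mllt6, Syt1 and Ankrd10 (0.62, 0.59 and 0.59), for Zbtb16 Nrp1, Zc3hav1 and Ppp1cc (0.68, 0.65 and 0.62), and for Hif3a Sars2, Slc8a3 and Eif3c (0.73, 0.71 and 0.71). These are the highest among 12169 tested genes, and the arrays share set effects. Plin4, which was not tested, was left out.

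The gene of the receptor itself was not called among labels. Nr3c1 read 615 to 852 (mean 777 ± 61.6, SD over 31 arrays, adjusted p = 0.386 among the 10 labels), and the mineralocorticoid receptor Nr3c2, which also binds corticosterone, read 127 to 184 (adjusted p = 0.917). Of 12 tested genes of the receptor and its regulators 2 were called among labels, where 12.4% of all probe sets were, Hsp90aa1 (adjusted p = 0.0014) and Hsd11b1 (0.00143), the enzyme that regenerates active hormone from its inert form. Hsd11b1 rose in activated natural Treg over natural Treg labels by 0.41 (SE 0.08, adjusted p = 0.00344) and in induced Treg over natural Treg labels by 0.39 (SE 0.07, adjusted p = 0.0138), 2 contrasts that share the natural Treg arrays. With the set as a block these were 0.53 (adjusted p = 0.0541) and 0.44 (adjusted p = 0.0253). Hsp90aa1 fell by 0.43 (SE 0.06, adjusted p = 0.000428) in the first of them, and its block value was -0.27 (adjusted p = 0.153).

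Of 23 other tested glucocorticoid targets 4 were called among the labels, beside 12.4% of all probe sets, led by the metallothionein Mt1 (adjusted p = 0.000582), Bcl6 (0.0240) and Lcn2 (0.0476), with Ddit4 (0.0482) the last. Between activated natural Treg and natural Treg labels 4 of the 23 rose (Dusp1 by 0.44, Ddit4 by 0.50, Gpd1 by 0.36 and Lcn2 by 0.34) and 3 fell (Mt1, Glul by 0.51 and Bcl6 by 0.33), with a median difference of -0.01 beside 0.00 over all probe sets. Of all probe sets 7.73% rose and 7.84% fell there. Mt1 fell by 0.42 (SE 0.10, adjusted p = 0.00772) there and by 0.62 (SE 0.09, adjusted p = 0.00227) in induced Treg against natural Treg labels. It rose by 0.54 (SE 0.12, adjusted p = 0.0396) in IL-2 induced Foxp3-delta against induced Foxp3-delta labels, where 0.332% of all probe sets were called. With the block the 3 values of Mt1 were, in that order, -0.60 (adjusted p = 0.0521), -0.69 (adjusted p = 0.00256) and 0.66 (adjusted p = 0.140). With the block 0 of the 23 were called higher in any contrast, although Dusp1 differed by 0.67 (adjusted p = 0.145) between activated natural Treg and natural Treg labels. Of all probe sets 0.101% were called higher there with the block, and 0.604% for IL-2 culture of induced Treg. Between activated T and conventional T labels, where Sgk1 fell and Cdkn1a rose, 0 of the 23 were called in either direction. Only 6.17% of all probe sets were called in that contrast, so few calls among 23 genes would be usual.

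Of 10 tested p53 targets other than Cdkn1a 0 were called among labels by limma, beside 12.4% of all probe sets, so 0 calls among 10 genes would not be unusual. An unadjusted p under 0.05 was reached by 4 of them, a count given without the share over all probe sets. In activated T against conventional T labels 2 of the 10 rose, Sesn2 by 0.55 (adjusted p = 0.0107) and Gtse1 by 0.37 (adjusted p = 0.0456), and 0 fell, with a median of 0.15. Of all probe sets 2.97% rose and 3.2% fell in that contrast. Once array set was a block, 0 of the 10 were called there, as were only 0.0811% of all probe sets. With treated or cultured labels set against native ones 0 of the 10 were called, with a median of 0.00 and 0.563% of all probe sets called. After blocking on array set 1 of the 10, Phlda3, fell by 0.31 (adjusted p = 0.00746), where 0.405% of all were called and Cdkn1a 1421679_a_at rose. Of 18 tested paralogs of the members 4 were called among labels, beside 12.4% of all probe sets, the first being Cdkn1c (adjusted p = 0.00123), which encodes the related inhibitor p57, then Tsc22d2 (0.0111), Plin2 (0.0330) and Epas1 (0.0399). Cdkn1c fell where Cdkn1a 1424638_at rose, by 0.73 (SE 0.11, adjusted p = 0.000428) in activated natural Treg against natural Treg labels. Its block value was -0.85 (adjusted p = 0.0295). Treated or cultured against native labels also called listed genes by limma. They were Hsd11b1 (0.28, adjusted p = 0.00246), Mt1 (-0.25, adjusted p = 0.0280) and Cdkn1c (-0.31, adjusted p = 0.0126). With the block they stayed called, at 0.31 (adjusted p = 0.00185), -0.29 (adjusted p = 0.0116) and -0.34 (adjusted p = 0.01075).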

How the data were processed

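The deposited table holds 1 intensity per probe set and array, on a linear scale, for 45101 probe sets and 31 arrays. How the authors summarised and scaled probes was not given in the sources used here. Probe sets were named from the platform annotation (34958 with 1 gene symbol, 932 with several, 9160 with none listed, 64 controls), and each table column was matched to its sample by name.

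Intensities were quantile normalised between arrays and taken as log2(intensity + 16). The 24669 probe sets tested were not controls and lay above the table median on at least 2 arrays. A mean for each of the 10 label groups was fitted to all 31 arrays with limma 3.58.1 (R 4.3.3), with 10 contrasts, 2 interactions and an F test, and called at a Benjamini-Hochberg adjusted p under 0.05 over all tested probe sets. Correlations took the probe set with the highest mean of each gene, with 100000 permutations of the arrays (Python 3.11.15, numpy 2.4.6, scipy 1.17.1). Scripts were tested on simulated data. The number of arrays limits the precision. Array sets came from Ward clustering of the median, 99th percentile and cre to bioB ratio, and were used as a block and one by one. Alternatives changed the scaling, pseudocount, filter, probe set rule, block and arrays used.

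The members, lists and tests were chosen with earlier results of these data known. Named were the 8 genes, the 3 most correlated genes of each, and the 3 genes of each list with the smallest F test p. Nr3c1, Nr3c2 and further genes behind counts of 5 or fewer were named after their values were seen. The contrast of treated with native labels was added after the Cdkn1a values were seen.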

Additional observations from a re-analysis of the deposited data

Results flagged for a closer look

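In 3 of 36 label groups of 4 or 5 arrays, over the 12 tested probe sets, a single array lay far from the rest, judged by its gap to the nearest array as a share of the range. Chance alone sets apart about 1 in 20 such groups. Fkbp5 1416125_at read 182 on natural Treg array 1, while the other 3 arrays of that label read 208 to 213. Tsc22d3 1425557_x_at read 89.0 on natural Treg array 4, and 65.1 to 68.4 on the others. Sult1a1 1427345_a_at read 109.7 on activated T array 2, and 119.7 to 121 on the others.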

How the results depend on the processing

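Over all alternatives 571 counts of calls stayed within 1.5 times their main value and 51 did not. The 571 include counts of 0 that stayed 0, and only 2 of the 10 contrasts of label groups called a member in the main fit. The tally therefore says little about how firm the calls were. Of values for single genes 351 kept direction and call, 62 lost the call and 2 turned sign. Of the 12 probe sets, deposited values called 7 for induced Treg against activated T (62.6% of all probe sets called), 9 for activated natural Treg against natural Treg (62.5%), 0 for treated against native labels (0.0324%) and 7 among the 10 labels (54.3%), and 28 gene pairs passed. The reversed values were those of Cdkn1a 1424638_at on deposited values, -0.023 for activated T against conventional T and -0.28 for activated natural Treg against natural Treg. Scaling to array medians called 5 for activated T against conventional T (26.8% of all) and 3 for induced Treg against natural Treg (10.9%), and 3 gene pairs passed. With no filter on low values 0 were called for activated natural Treg against natural Treg (9.71% of all). With 1 probe set per gene, the highest or the mean, 1 gene was called for treated against native labels (0.822% and 0.567% of all genes), and with the mean 2 among labels (10.2%) and 0 gene pairs. With the array set as a block 0 were called for both activation contrasts (0.0811% and 0.199% of all), 1 for treated against native labels (0.405%) and 1 among labels (1.03%). Within set 1, 1 was called among labels, 0 for treated against native and 0 pairs, and within sets 2 and 3, 0 among labels and 0 pairs. Spearman's rho gave 0 pairs, and leaving out the 2 farthest arrays 0. With only the arrays of the groups compared, Cdkn1a 1424638_at had an adjusted p of 0.136 and 0.123 by limma in the activation contrasts. The causes were not tested.

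Same-numbered arrays of different labels had a median correlation of deviations of 7e-04 over 114 pairs, differently numbered ones -0.002 over 314, and 11 of 31 arrays correlated best with their own number. Pooled over all labels, these medians gave no sign that the numbers pair the arrays. The pooling cannot show pairing between single labels, such as induced and failed induced Treg from the same cultures. No chance level was set beside the 11. With the replicate block 1 was called for induced Treg against activated T (0.134% of all), 2 for activated natural Treg against natural Treg (17.6%) and 4 among labels (13.5%), and Cdkn1a 1424638_at had an adjusted p of 0.0686 by limma in activated T against conventional T.

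Leaving out 1 array at a time, the count was 1 to 3 for activated T against conventional T (1 without conventional T array 2), and 0 to 2 for activated natural Treg against natural Treg. The latter was 0 without activated natural Treg array 1 or 3 or natural Treg array 1 or 3, and 2 without induced Treg array 5, failed induced Treg array 3 or activated T array 3. It was 1 to 2 for treated against native labels, 2 to 4 among labels (2 without IL-2 induced Foxp3-delta array 1), 0 to 1 for induced Treg against activated T (1 without induced Treg array 5, failed induced Treg array 3 or activated T array 1 or 3) and 0 in the other contrasts. The correlation count was 0 to 2, with 2 pairs without induced Foxp3-delta array 1 or 2 or activated T array 1. Where a label was left with 1 array, that array was taken to vary like the other groups. Signal limits Plin4 and the secondary probe sets, which lay near the level of unspiked controls or below the table median.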
